A study of Rattus norvegicus with 12 samples.

Results

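The respiratory chain of the inner mitochondrial membrane was measured here through the nuclear genes of its complexes I to IV and of the ATP synthase, complex V, in neonatal rat aortic smooth muscle cells. Genes were taken by symbol: subunits of complex I (Nduf), succinate dehydrogenase (Sdha to Sdhd), complex III (Uqcr), cytochrome c oxidase (Cox4 to Cox8) and ATP synthase (Atp5), when the array annotation gave a probe set exactly 1 symbol. This found 86 genes on 96 probe sets, of 14217 genes with 1 symbol on the array, and each gene was read from its brightest probe set. Of the 86, 81 were bright enough to test: 35 of 36 genes of complex I, all 6 complex I assembly factors, all 4 genes of complex II, all 7 of complex III, 13 of 17 of complex IV and all 16 of complex V. Subunits encoded by mitochondrial DNA do not match the symbols, and genes such as Uqcrb and Cox7a2 were not analysed here. Cox6c-ps1 matches by symbol although it is named as a pseudogene.

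Complexes I and II pass electrons from NADH and succinate to ubiquinone, complex III passes them on to cytochrome c, and complex IV passes them to oxygen. Complexes I, III and IV pump protons as they do so, and complex V makes ATP as the protons flow back. In vascular smooth muscle this machinery works beside a high rate of glycolysis, and the balance between them is known to shift when cells leave the contractile state.

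The cells were primary cultures from newborn rats, kept without serum overnight. They were taken unstimulated (basal) or after 120 min of stimulation in each of 3 experiments, with 2 arrays per group and 12 arrays in all. The labels place the basal arrays prior to stimulation and name no control kept for the same 120 min. A change with the stimulus and a change with time or handling cannot be told apart here. One experiment used 2 U/ml thrombin and another a peptide that activates the thrombin receptor (TRAP, 25 µM). In the last, cells were kept for 24 h in 200 ng/ml of the toxin PTX, from Bordetella pertussis, and then given the same dose of TRAP. Thrombin is a clotting protease that cleaves protease-activated receptors, TRAP activates such a receptor without a protease, and PTX uncouples receptors from Gi proteins. The comparisons ask what receptor stimulation does to transcription in the short term, with and without coupling to Gi. Whether the basal cells of the PTX experiment also had PTX is not stated, since their label gives no agent. Nothing in the labels ties the replicate arrays to separate cultures. A p-value here measures the spread between samples alone, and that spread may be technical.

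Pearson's r across the tested probe sets was 0.983 to 0.991 for replicates, 0.972 to 0.991 among the 8 arrays of both TRAP experiments, and 0.913 to 0.941 between these and the thrombin experiment. Median signals per array were 39.5 to 40.4 on the 4 arrays of the thrombin experiment and 43.4 to 53.4 on the 8 of the TRAP experiments. Arrays are few, and their number limits the precision: the median SD between replicate arrays over the tested respiratory chain genes was 0.1 on the log2 scale. All 8 smooth muscle markers were above the filter, with mean signals from 28.9 for Des, 50.7 for Myh11 and 88.3 for Mylk to 5561.3 for Tagln, 7220.5 for Acta2 and 7422.7 for Cald1. All 5 fibroblast markers were above it as well, from 98.2 for Lum to 1720.3 for Dcn and 10210.7 for Col1a1, and so was the troponin Tnnt2 (3140.4). Of the endothelial markers 1 of 5 (Tek, 45.4) and of the leukocyte markers 1 of 6 (Csf1r, 30.8) passed the filter, with Pecam1 at 4.2 and Ptprc at 4.3. In the acute-phase gene Saa3, TRAP replicate 1 (222.5) stood with the basal arrays of the PTX experiment (374.6 and 420.9) and TRAP after PTX replicate 1 (20.3) with the basal TRAP arrays (15.9 and 18.1). Lcn2 crossed in the same way, with 293.9 on TRAP replicate 1 and 20.4 on TRAP after PTX replicate 1. Its basal signals were 360.2 and 275.2 in the PTX experiment and 32.8 and 23.5 in the TRAP experiment. Whether these 2 arrays carry each other's labels was not tested. The values after TRAP, after TRAP with PTX and of the PTX effect hold for the arrays as labelled, and counts without both are given as well. In bulk RNA, fewer cells of a type and less RNA per cell cannot be told apart.

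Unstimulated cells of the thrombin experiment had more respiratory chain mRNA than those of the TRAP experiments for many genes of complexes I and II, and less for some of complex IV. Of the 81 genes, 33 were higher and 5 lower on the 2 basal arrays of the thrombin experiment than on the 4 basal arrays of both TRAP experiments. The experiments differed widely across the array: limma called 46.4% of all 18625 probe sets, 21.6% higher and 24.9% lower. Calls in either direction made up 46.9% of the respiratory chain genes, near the background, with 40.7% higher and 6.17% lower. The median difference was 0.19 on the log2 scale over the 81 genes and -0.02 over all probe sets. The arrays did not overlap in 44 genes, 35 of them above (26.6% of all probe sets were above) and 9 below (29% below). Of the 33 higher calls 19 held when any 1 of the 12 arrays was left out, and of the 5 lower calls 1 did. Without both stimulated arrays that stood apart, which enter here only through the shared spread, 30 genes were higher and 5 lower.

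By complex, the higher calls were 19 of 35 for complex I, 2 of 6 for its assembly factors, 4 of 4 for complex II, 3 of 7 for complex III, 2 of 13 for complex IV and 3 of 16 for complex V. The lower calls were 1 for complex I, 3 for complex IV and 1 for complex V. Relative to each gene's mean over the 12 arrays, the median of complex I was 0.22 and 0.23 (log2) on the basal arrays of the thrombin experiment and -0.11 to 0.04 on the other 4 basal arrays. The median of complex II was 0.28 and 0.37 against -0.21 to -0.03, and that of complex III was 0.16 and 0.22 against -0.19 to 0.01. The median of the assembly factors was 0.11 and 0.15 against -0.05 to 0.09. The basal arrays of the thrombin experiment lay above the other basal arrays in these 4 groups of genes. They overlapped with them in complex IV (-0.04 and 0.01 against -0.1 to 0.1) and in complex V (0.06 and 0.1 against -0.12 to 0.07).

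**Figure D1:**
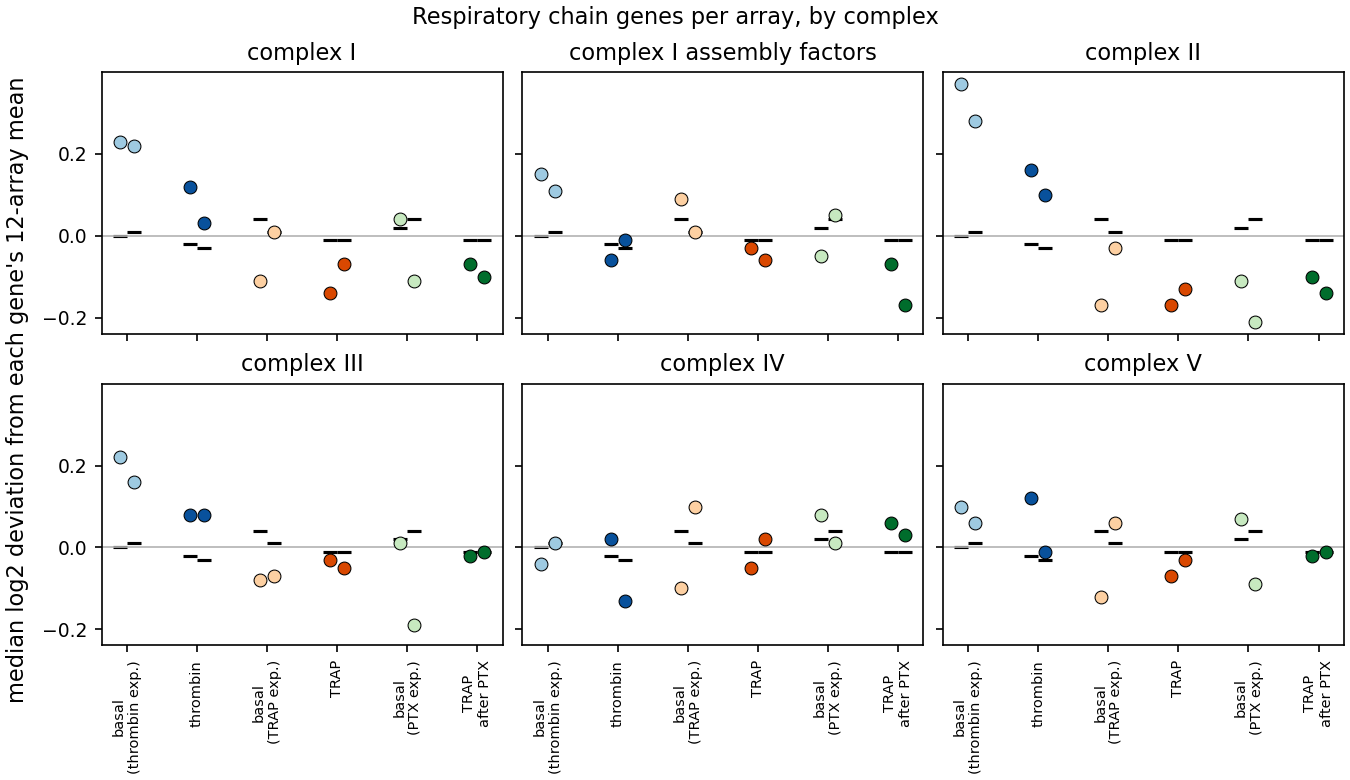
Median log2 deviation of the genes of each complex from their own 12-array means, 1 point per array, by group; short black bars give the same median over all 18625 tested probe sets. Complexes I, II and III stand highest on the basal arrays of the thrombin experiment, while complex IV spans -0.13 to 0.1 with no such order.

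Complex II showed the difference in every subunit. The flavoprotein Sdha, which oxidises succinate, had signals of 1349 and 1165.8 on the basal arrays of the thrombin experiment and 850.9 to 975.6 on the 4 other basal arrays. Its difference was 0.46 ± 0.08 (log2, SE, adjusted p = 0.000439). The iron-sulfur subunit Sdhb had 1833.4 and 1944.4 against 1186.4 to 1357, a difference of 0.56 ± 0.08 (1.47-fold, adjusted p = 0.000101). Sdhc and Sdhd anchor the enzyme in the membrane and hold its ubiquinone site. Sdhc had 1807.2 and 1634.1 against 1075.2 to 1377.1 (0.46 ± 0.11, adjusted p = 0.00263). Sdhd had 1700.6 and 1656.1 against 1218.6 to 1309.5 (0.42 ± 0.07, adjusted p = 0.000345), and a second probe set of Sdhd was higher by 0.60 (adjusted p = 0.000685). The groups did not overlap in any of the 4 genes, and each of the 4 calls held when any 1 array was left out.

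The 150 bases before the RefSeq start of each Sdh gene (rat build GRCr8) are shown because these 4 genes differed together. They are written 5′ to 3′ along the gene. Capitals mark matches on either strand to the letters TGCGCA (core of the site of nuclear respiratory factor 1, NRF1), CCGGAAG (core of ETS sites such as that of GABP, also called NRF2), AAGATGG (core of the YY1 site), AAGGTCA (a single nuclear receptor site, as bound by oestrogen-related receptors) and GGGCGG (the GC box). No matches overlapped in the stretches shown.

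Sdha, chr1:30764403-30764552, plus strand: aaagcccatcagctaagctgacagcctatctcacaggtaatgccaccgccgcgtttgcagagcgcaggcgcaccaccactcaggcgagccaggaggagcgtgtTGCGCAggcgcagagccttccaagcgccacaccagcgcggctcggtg

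Sdhb, chr5:158547784-158547933, plus strand: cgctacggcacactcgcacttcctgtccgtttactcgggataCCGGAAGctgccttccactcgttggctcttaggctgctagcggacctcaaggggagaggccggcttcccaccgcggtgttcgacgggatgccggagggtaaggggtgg

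Sdhc, chr13:86098026-86098175, minus strand: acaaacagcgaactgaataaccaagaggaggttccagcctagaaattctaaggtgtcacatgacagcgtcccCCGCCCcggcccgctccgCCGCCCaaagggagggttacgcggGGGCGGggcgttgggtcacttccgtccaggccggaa

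Sdhd, chr8:59850642-59850791, minus strand: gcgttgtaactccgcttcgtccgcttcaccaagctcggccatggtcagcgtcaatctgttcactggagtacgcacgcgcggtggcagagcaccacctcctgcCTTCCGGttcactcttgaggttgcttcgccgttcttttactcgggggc

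No motif is in all 4 stretches: Sdha holds the NRF1 letters 1 time, Sdhb and Sdhd hold the ETS letters 1 time each, and Sdhc holds the GC box 3 times. Over the 78 respiratory chain genes matched in the RefSeq promoter table, with 250 bases before the start searched, the NRF1 letters were in 18 (23.1%), against 10.6% of the 11701 array genes in the table and 6.57% of all 27457 genes in it. The ETS letters were in 26.9%, against 12.9% and 7.74%. The YY1 letters were in 5.13%, against 4.24% and 4.63%, the nuclear receptor letters in 7.69%, against 2.76% and 3.77%, and the GC box in 37.2%, against 54.2% and 32.4%. Of the 33 genes called higher in basal cells of the thrombin experiment 12 held the NRF1 letters and 8 the ETS letters, and of the 41 other tested genes with a promoter 6 and 13 did. The YY1 letters were in 1 of the 33 and 3 of the 41, the nuclear receptor letters in 1 and 5, and the GC box in 9 and 17. No difference between the 33 and the 41 genes was tested. These matches describe the letters of the windows and no binding was measured.

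Within complex I, the genes with the largest difference belonged to several modules. Ndufa5, an accessory subunit of the arm that reduces ubiquinone, had signals of 1292.6 and 1030.8 on the basal arrays of the thrombin experiment and 299.8 to 492.2 on the other basal arrays. The groups were far apart, with a difference of 1.42 ± 0.16 (2.67-fold, adjusted p = 8.39e-06), the largest among the 81 genes. Ndufb10, an accessory subunit of the membrane arm, had 1441.6 and 1349.6 against 770.2 to 917.7 (0.71 ± 0.08, adjusted p = 1.2e-05). Ndufs7, the core subunit with the last iron-sulfur cluster before ubiquinone, had 1024.3 and 926.2 against 633.9 to 780.7 (0.49 ± 0.10, adjusted p = 0.00136). Other accessory subunits were Ndufb11 (0.55), Ndufc1 (0.55), Ndufa3 (0.48), Ndufb5 (0.48), Ndufa13 (0.38) and Ndufb6 (0.36), with adjusted p from 0.000489 to 0.002. These 9 higher calls held when any 1 array was left out, while the 10 other higher calls of complex I, with differences of 0.19 to 0.34, were each lost in at least 1 such fit.

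Ndufv2, a core iron-sulfur subunit of the arm that oxidises NADH, differed in the opposite direction. Its signals were 1376.8 and 1216.7 in basal cells of the thrombin experiment and 1583.3 to 1775.6 in those of the TRAP experiments, without overlap (-0.40 ± 0.09, 0.757-fold, adjusted p = 0.00168). Other subunits of that arm varied. Ndufs6 (0.32), Ndufa7 (0.28) and Ndufa12 (0.26) were called higher, with adjusted p of 0.0103, 0.0102 and 0.0135. These calls were lost without basal thrombin replicate 1 for Ndufs6 and Ndufa7 (adjusted p = 0.159 and 0.0879) and without basal thrombin replicate 2 for Ndufa12 (0.116). Ndufv1 at -0.19 ± 0.10 (adjusted p = 0.126), Ndufs1 at 0.02 ± 0.08 (0.876) and Ndufv3 at 0.10 ± 0.10 (0.408) did not pass. A second, dimmer probe set of Ndufa7 did not pass either, at 0.04 (adjusted p = 0.872). Ndufa4, named as a complex I subunit but now assigned to complex IV, was higher by 0.33 ± 0.10 (adjusted p = 0.015), a call lost without basal thrombin replicate 1 (adjusted p = 0.2). Of the assembly factors, Ndufaf3, which helps to build the ubiquinone arm, had 612.5 and 543.9 against 320.2 to 352.9 (0.74 ± 0.09, adjusted p = 1.82e-05). The other one called was Ndufaf7, a methyltransferase. Its second, dimmer probe set was at 0.18 (adjusted p = 0.396), and its brightest was higher by 0.31 (adjusted p = 0.0483). That call held in only 2 of the 12 fits that leave out 1 array, those without basal thrombin replicate 1 and basal PTX replicate 2 (adjusted p up to 0.383).

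The same stretch before the start of Ndufa5 is shown beside that of Cox6a2, the genes with the largest differences.

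Ndufa5, chr4:53971236-53971385, minus strand: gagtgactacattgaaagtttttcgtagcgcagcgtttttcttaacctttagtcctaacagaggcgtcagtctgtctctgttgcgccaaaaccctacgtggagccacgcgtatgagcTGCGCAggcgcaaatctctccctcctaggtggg

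Cox6a2, chr1:192219717-192219866, minus strand: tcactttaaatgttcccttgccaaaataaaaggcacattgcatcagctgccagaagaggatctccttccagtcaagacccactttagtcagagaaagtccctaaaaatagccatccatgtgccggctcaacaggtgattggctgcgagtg

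The Ndufa5 stretch holds the NRF1 letters 1 time, and that of Cox6a2, a muscle isoform, holds none of the 5 motifs.

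In complex III, Uqcrfs1, the Rieske iron-sulfur protein that takes electrons from ubiquinol, had signals of 3029.7 and 3143.1 against 2129.3 to 2544.2 (0.41 ± 0.09, adjusted p = 0.00133). Uqcrc2, a core protein, had 2576.3 and 2391.5 against 1823.3 to 2142.5 (0.33 ± 0.08, adjusted p = 0.00345). Both genes were higher without overlap. A second, dimmer probe set of Uqcrc2 gave the same direction with a larger difference of 1.66 (adjusted p = 4.12e-07), so the size of this difference depends on the probe set. Uqcrh, the hinge protein, was higher by 0.22 (adjusted p = 0.04), a call that held in 2 of the 12 fits that leave out 1 array, those without basal thrombin replicate 2 and basal PTX replicate 1 (adjusted p up to 0.399).

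Complex IV was mixed and included isoform pairs. Cox6a2, the isoform of subunit VIa typical of heart and skeletal muscle, had signals of 328.7 and 306.3 on the basal arrays of the thrombin experiment and 113.3 to 169.9 on the others. It was higher by 1.08 ± 0.19 (2.12-fold, adjusted p = 0.000441) without overlap. Cox6a1, the isoform found in most tissues, had 2856.3 and 3018 against 3301.2 to 3897.3 and was lower by -0.26 ± 0.09 (adjusted p = 0.0323). The Cox6a1 call was lost without either basal thrombin array, basal TRAP replicate 2 or basal PTX replicate 1 (adjusted p 0.0624 to 0.169). It was also lost with no filter (0.0595), centred arrays (0.112), no trend (0.0736), array weights (0.0631) and only the arrays compared (0.0525). Cox6b1, a subunit facing the intermembrane space, was lower by -0.28 ± 0.09 (adjusted p = 0.0185), and this was lost without basal thrombin replicate 1 (0.154) or basal TRAP replicate 2 (0.057), and with centred arrays (-0.23, adjusted p = 0.057). Cox7b, a small membrane subunit, had 2459.2 and 3189.5 against 3482.2 to 4353.5, without overlap. It was lower by -0.47 ± 0.12 (0.72-fold, adjusted p = 0.00522), but by -0.29 without basal thrombin replicate 1 (adjusted p = 0.117).

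Cox7a2l, which joins complexes III and IV in supercomplexes, was higher by 0.23 ± 0.08 (adjusted p = 0.0306), a call lost without either basal thrombin array, either basal TRAP array or basal PTX replicate 2 (adjusted p up to 0.113). Its relative Cox7a1, a muscle isoform, was dim, with signals of 36 to 43.1 on the 6 basal arrays and a difference of 0.06 ± 0.18 (adjusted p = 0.807). Cox4i1, the common isoform of subunit IV, had 5568.4 and 5698 against 5823.1 to 6689.1, a difference of -0.15 ± 0.08 that did not pass (adjusted p = 0.152). The alternative isoforms Cox4i2, Cox6b2, Cox7b2 and Cox8b, and Ndufa4l2, a relative of Ndufa4 known for its induction in low oxygen, were below the filter. Their highest signals on any array were 25.8, 16.4, 20, 3.1 and 38.3, in that order, and they were not tested.

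In complex V, Atp5mg, subunit g of the membrane part, had signals of 4346.6 and 4102.9 against 2946.7 to 3345.7 (0.42 ± 0.09, adjusted p = 0.00134). Atp5po, the oligomycin sensitivity protein at the top of the peripheral stalk, had 2868.8 and 2483.4 against 1948.1 to 2135.4 (0.40 ± 0.08, adjusted p = 0.00146). Both were above all other basal arrays. Atp5pb, subunit b of the stalk, was higher by 0.29 ± 0.11 (adjusted p = 0.0344). That call was lost without basal thrombin replicate 1, basal TRAP replicate 1 or basal PTX replicate 2 (adjusted p up to 0.259). Atp5mk, a small subunit of the membrane part, was lower by -0.35 ± 0.09 (adjusted p = 0.00771), which was lost without basal thrombin replicate 2 (-0.28, adjusted p = 0.0742). In the catalytic F1 part, Atp5f1a, Atp5f1b and Atp5f1c did not pass, at 0.17, -0.03 and -0.07. Neither did its genes Atp5f1d (0.04) and Atp5f1e (0.14). The inhibitor Atp5if1 was at -0.19 ± 0.09 (adjusted p = 0.0859).

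**Figure D2:**
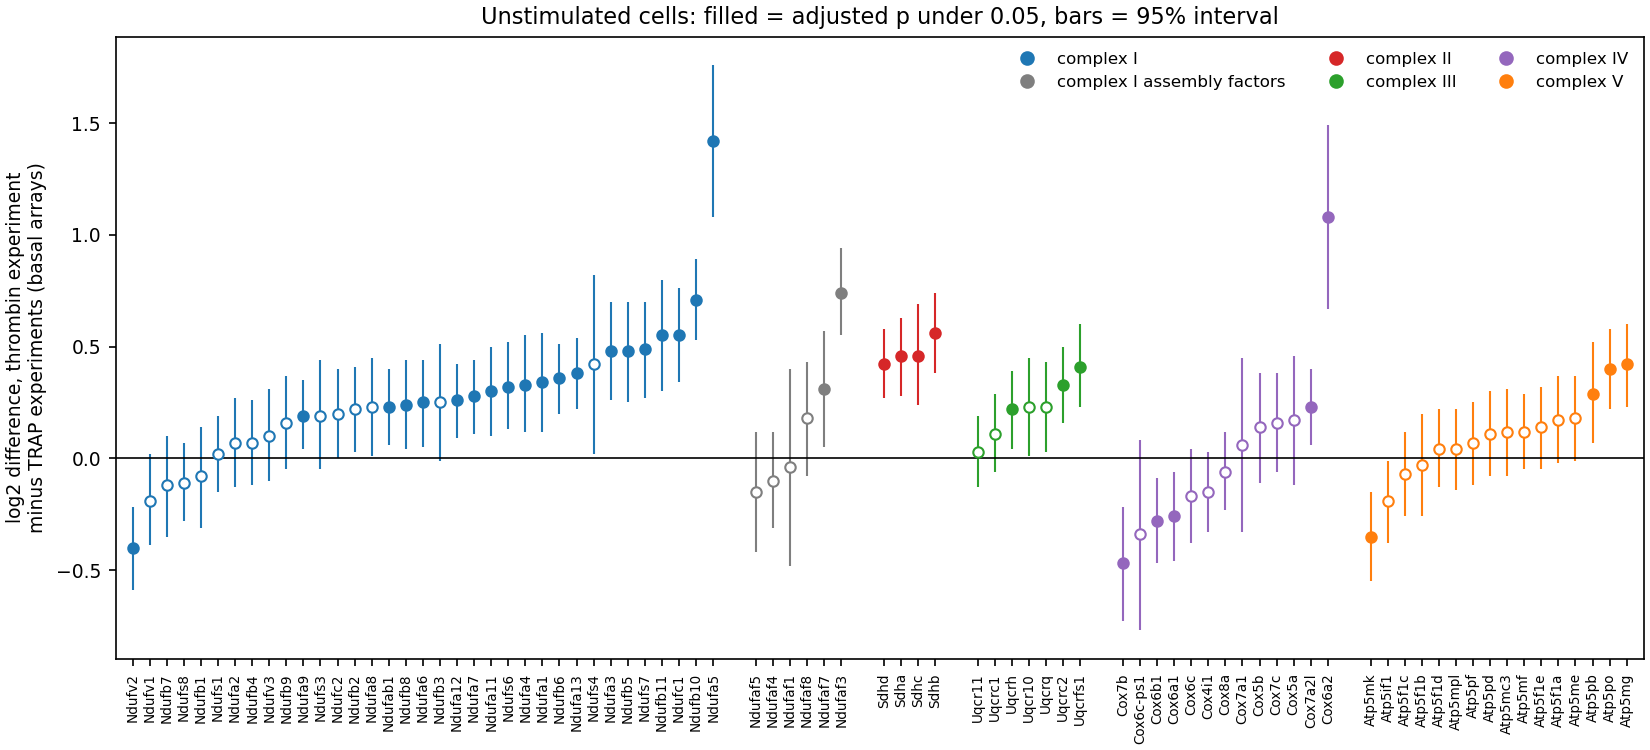
Difference between unstimulated cells of the thrombin experiment (2 arrays) and of both TRAP experiments (4 arrays) for each of the 81 tested genes, in log2 units with 95% intervals, coloured by complex; filled points passed the limma test at an adjusted p under 0.05. All 4 genes of complex II and 19 of 35 of complex I are filled above 0, and 3 genes of complex IV are filled below 0.

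Stimulated cells were compared in the same way, after the basal difference was seen. Between the stimulated arrays of the thrombin experiment and those of the TRAP experiments 20 genes were higher and 4 lower (43.7% of all probe sets were called, 20.2% higher and 23.5% lower). These are 24.7% and 4.94% of the 81 genes, and 29.6% in either direction, so the share of higher calls was near that over the array. The arrays did not overlap in 38 genes above (27.9% of all probe sets) and 12 below (30.4%). Of the 33 genes called higher in basal cells 17 were called higher again and 32 lay above 0, and of the 5 called lower 3 were called lower again and 5 lay below 0. The same counts were not made over all probe sets, so whether this is particular to respiratory chain genes was not tested. Whether the basal and stimulated differences are alike was not tested. The 10 largest higher calls were Cox6a2 (1.07), Ndufa5 (1.02), Ndufb11 (0.75), Ndufs4 (0.57), Ndufaf3 (0.55), Ndufc1 (0.50), Ndufb8 (0.43), Sdhb (0.42), Ndufb10 (0.41) and Ndufa13 (0.40), with adjusted p from 0.000161 to 0.0246. The 9 besides Ndufs4 held when any 1 array was left out. Ndufs4 was lost without thrombin replicate 2 (0.26), without TRAP replicate 1 (0.53) and without both stimulated arrays that stood apart (0.53). It was also lost with no trend (adjusted p = 0.0524). Uqcrc2 was not called from its brightest probe set (0.18, adjusted p = 0.0774), but its second, dimmer probe set was higher by 1.08 (adjusted p = 2.31e-05). For Uqcrc2 the call therefore depends on the probe set. Lower were Ndufv2 (-0.57, adjusted p = 0.000122), Atp5mk (-0.48, 0.000856), Cox7b (-0.47, 0.00587) and Ndufv1 (-0.27, 0.0348). The Cox7b call was lost without thrombin replicate 2 (-0.34, adjusted p = 0.106). The Ndufv1 call was lost in 8 alternatives, among them those without thrombin replicate 2 (-0.12, adjusted p = 0.459), TRAP replicate 2 (0.0974) or TRAP after PTX replicate 1 (0.0877). The 24 calls became 15 without thrombin replicate 1, 15 without thrombin replicate 2 and 18 without TRAP replicate 1 and TRAP after PTX replicate 1. Between the basal arrays of both TRAP experiments limma called 0 of 81 genes (0.043% of all probe sets, 0.0215% in each direction). The differences ran from -0.43 to 0.35, and 1 gene, Atp5if1, had an unadjusted p under 0.05 (-0.24, adjusted p = 0.356). Its second, dimmer probe set was at 0.06 (adjusted p = 0.95).

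Other genes moved with the experiment as well. In the basal cells of the thrombin experiment 7 of 8 smooth muscle markers were lower, with a summed signal of 15518.9 and 17131.7 against 21955.6 to 25789.9. Of 5 fibroblast markers 4 were lower (summed signal 13369 and 15421.3 against 17803.2 to 20987.7), among them Dcn (-1.68), Lum (-2.21) and Pdgfra (-2.39). Of 7 cardiac and skeletal muscle markers on the array 1 was higher, the troponin Tnnt2 (0.92), with Myh6, Myh7 and Tnni3 at mean signals of 9.3, 4.9 and 6. Of 5 endothelial markers 1 was higher, Tek (0.83). The 3'/5' signal ratio of GAPDH, a sign of RNA quality, was 1.06 to 1.10 on the 4 arrays of the thrombin experiment and 1.11 to 1.18 on the other 8, and that of actin was 1.28 to 1.45 and 1.32 to 1.5. The part of these markers and ratios in the result was not tested. The labels do not say whether the experiments shared cultures, RNA preparations or hybridisations, so the experiment and these conditions cannot be told apart.

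**Figure D3:**
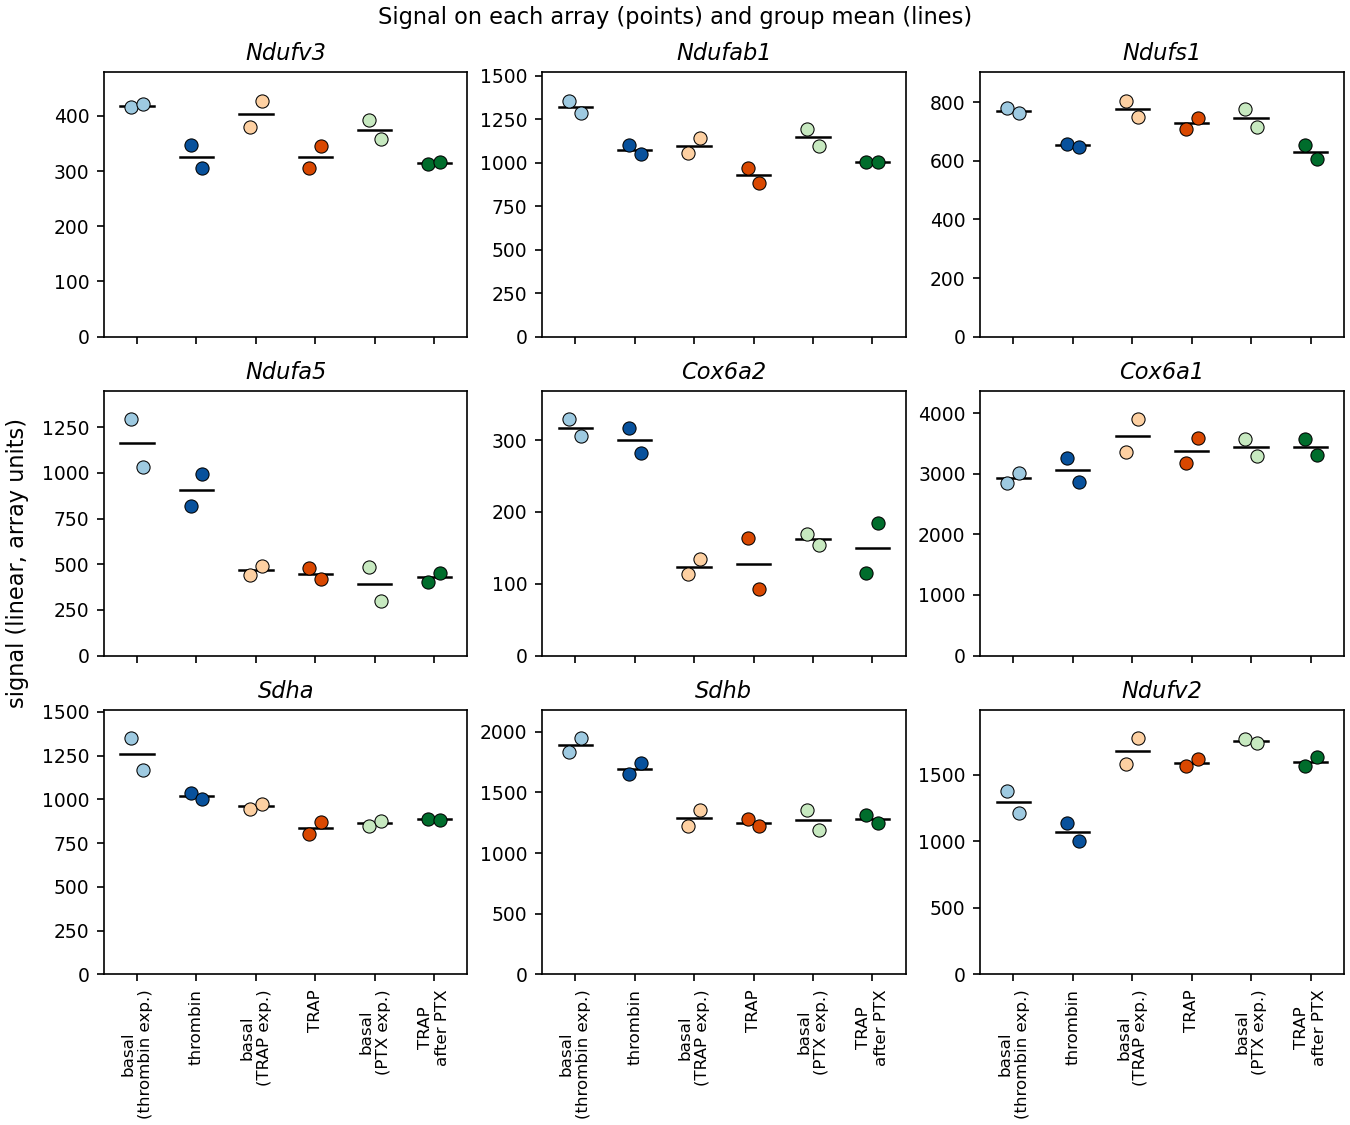
Linear signal of 9 respiratory chain genes on each of the 12 arrays (points, 2 per group) with the group means (lines), each axis starting at 0. Ndufv3, Ndufab1 and Ndufs1 fell in the average of the 3 responses and passed in none alone (Ndufs1 after TRAP is at -0.09), Ndufa5, Cox6a2, Sdha and Sdhb are higher and Cox6a1 and Ndufv2 lower on the basal arrays of the thrombin experiment.

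No single stimulus changed a respiratory chain gene past the threshold within 120 min. After thrombin limma called 0 of the 81 genes, while it called 4.74% of all probe sets (2.63% rose and 2.1% fell). The median change was -0.09 on the log2 scale, and -0.04 over all probe sets. Signals on both thrombin arrays were below both basal arrays in 37 genes, against 28.6% of all probe sets, and above in 3, against 18.8%. Unadjusted p was under 0.05 in 14 genes, all with changes below 0. The share of all probe sets at that level is not given here. This count and the like counts of the other comparisons are therefore not read against the array. The 95% interval of the change lay within a 2-fold change in all 81 genes and within a 1.5-fold change in 77.

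By complex, the median change with thrombin was -0.12 for complex I, -0.20 for its assembly factors, -0.20 for complex II, -0.09 for complex III, 0.05 for complex IV and -0.07 for complex V. The lowest unadjusted p among the 81 genes was that of Ndufb10, with signals of 1441.6 and 1349.6 in basal cells and 1160.6 and 1088.6 after thrombin (-0.31 ± 0.09, adjusted p = 0.0877). Sdha had 1349 and 1165.8 in basal cells and 1036.4 and 1003 after thrombin (-0.29 ± 0.09, adjusted p = 0.0965). Both genes were lower on each thrombin array than on each basal array, but neither passed. Sdha was the 1 gene called after thrombin when basal thrombin replicate 2 was left out, and Cox7a2l (-0.24 ± 0.09, adjusted p = 0.175) was the 1 called with quantile normalization.

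After TRAP limma called 0 of 81 genes (3.9% of all probe sets, 1.84% up and 2.07% down), and 3 had an unadjusted p under 0.05. The median change was -0.03, with 17 genes below both basal arrays (29.4% of all probe sets) and 1 above (19.2%). The largest value was that of the pseudogene Cox6c-ps1, a dim probe set with a mean signal of 29.7: its signals were 50.9 and 34.2 in basal cells and 22.3 and 16.5 after TRAP (-0.72 ± 0.23, adjusted p = 0.113). After TRAP with PTX limma called 0 of 81 genes (2.71% of all probe sets, 1.68% up and 1.03% down), and 2 had an unadjusted p under 0.05. The median change was 0.00, with 15 genes below both basal arrays (27.1%) and 9 above (18.1%). Intervals lay within a 1.5-fold change in 79 genes after TRAP and in 77 after TRAP with PTX. Without TRAP replicate 1 and TRAP after PTX replicate 1 both counts were again 0.

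The responses were also compared with each other. Thrombin response minus TRAP response gave 0 calls among the 81 genes (0.532% of all probe sets), with 2 at an unadjusted p under 0.05: Cox6c-ps1 (1.18 ± 0.32, adjusted p = 0.16) and Cox7a2l (-0.30 ± 0.13, adjusted p = 0.434). The response to TRAP after PTX minus that to TRAP gave 0 calls (0.129% of all probe sets), with 2 at an unadjusted p under 0.05: Cox6c-ps1 (0.73 ± 0.32, adjusted p = 0.58) and Atp5if1 (0.32 ± 0.14, adjusted p = 0.573). A second, dimmer probe set of Atp5if1 was at -0.26 (adjusted p = 0.895), in the opposite direction. Intervals of the thrombin minus TRAP difference lay within a 2-fold difference in 80 of 81 genes and within a 1.5-fold difference in 68. For the effect of PTX on the TRAP response these numbers were 78 and 68.

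Averaged over the 3 responses, 3 genes fell and 0 rose, all 3 of complex I, against 7.62% of probe sets that fell and 5.55% that rose over the array. The 3 are 3.7% of the respiratory chain genes, and 13.2% of all probe sets were called in this average. Of the 81 genes 24 were below 0 in all 3 responses (29.6%, and 25.7% of all probe sets) and 3 were above 0 in all 3 (3.7%, and 15%). The median of the average change was -0.09 for complex I, -0.16 for its assembly factors, -0.05 for complex II, -0.03 for complex III, -0.01 for complex IV and -0.02 for complex V.

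Ndufv3, an accessory subunit at the NADH-oxidising tip of complex I, had signals of 415.8 and 420.8 in basal cells and 346.6 and 306 after thrombin. They were 380 and 427.7 in basal cells and 306.4 and 346.2 after TRAP, and 391.7 and 357.5 in basal cells and 312.9 and 316.9 after TRAP with PTX. The stimulated arrays were below the basal arrays without overlap in each experiment. Its changes were -0.35, -0.29 and -0.24, with an average of -0.29 ± 0.06 (0.816-fold, adjusted p = 0.00823), and a second, dimmer probe set gave -0.38 (adjusted p = 0.0244).

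Ndufab1, the mitochondrial acyl carrier protein, serves fatty acid synthesis in mitochondria and is also a subunit of complex I. Its signals went from 1358.1 and 1284.6 to 1099.8 and 1050.8 with thrombin, from 1057.5 and 1140.1 to 973 and 881.9 with TRAP, and from 1194.3 and 1097.9 to 1007.1 and 1001.9 with TRAP after PTX. Again no stimulated array overlapped with its basal arrays. The changes were -0.29, -0.24 and -0.19, with an average of -0.24 ± 0.05 (0.847-fold, adjusted p = 0.00872), lost with each array centred on its median (-0.18, adjusted p = 0.0665).

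Ndufs1, the largest core subunit of the same arm and holder of several iron-sulfur clusters, had signals of 778.4 and 761.7 in basal cells and 657 and 648.1 after thrombin. They were 805.2 and 748.4 and then 708.3 and 747.2 with TRAP, and 775.7 and 715.5 and then 653.7 and 605.5 with TRAP after PTX. The TRAP arrays lay just below the basal ones. The changes were -0.23, -0.09 and -0.24, with an average of -0.19 ± 0.05 (0.878-fold, adjusted p = 0.0318). This call was lost without basal replicate 1 of any experiment, either thrombin array, TRAP replicate 1 or TRAP after PTX replicate 2 (adjusted p from 0.0532 to 0.101), and without both stimulated arrays that stood apart in Saa3 (adjusted p = 0.0806). It was also lost with centred arrays (-0.13, adjusted p = 0.172) and with no trend (0.0729).

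The count of 3 in the average was 6 without basal thrombin replicate 2, with Ndufaf3, Ndufv2 and Sdha added, and 0 when all 6 basal arrays served as the control. It was 3 without both stimulated arrays that stood apart in Saa3, with another gene in the place of Ndufs1. The next genes by p were Ndufaf3 (-0.19 ± 0.06, adjusted p = 0.0538), Ndufv2 (-0.16 ± 0.06, 0.0867) and Sdha (-0.15 ± 0.05, 0.087). Among the other complexes the lowest p belonged to Uqcr11 and Uqcrh of complex III, Cox7a2l and Cox6c-ps1 of complex IV and Atp5po and Atp5f1c of complex V, and none of these passed. The 3 genes that fell are followed by the 150 bases before their starts, with the same capitals.

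Ndufv3, chr20:9613636-9613785, plus strand: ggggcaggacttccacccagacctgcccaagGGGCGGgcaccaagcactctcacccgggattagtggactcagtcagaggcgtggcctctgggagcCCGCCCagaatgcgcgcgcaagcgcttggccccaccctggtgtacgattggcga

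Ndufab1, chr1:186089337-186089486, minus strand: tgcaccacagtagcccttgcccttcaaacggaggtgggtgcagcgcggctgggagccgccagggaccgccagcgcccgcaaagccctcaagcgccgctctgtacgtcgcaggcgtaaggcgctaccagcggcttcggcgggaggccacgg

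Ndufs1, chr9:72073606-72073755, minus strand: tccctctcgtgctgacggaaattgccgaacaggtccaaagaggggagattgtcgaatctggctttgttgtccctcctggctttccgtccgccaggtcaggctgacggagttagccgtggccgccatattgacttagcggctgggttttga

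The Ndufv3 stretch holds the GC box 2 times, and the stretches of Ndufab1 and Ndufs1 hold none of the 5 motifs.

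**Figure D4:**
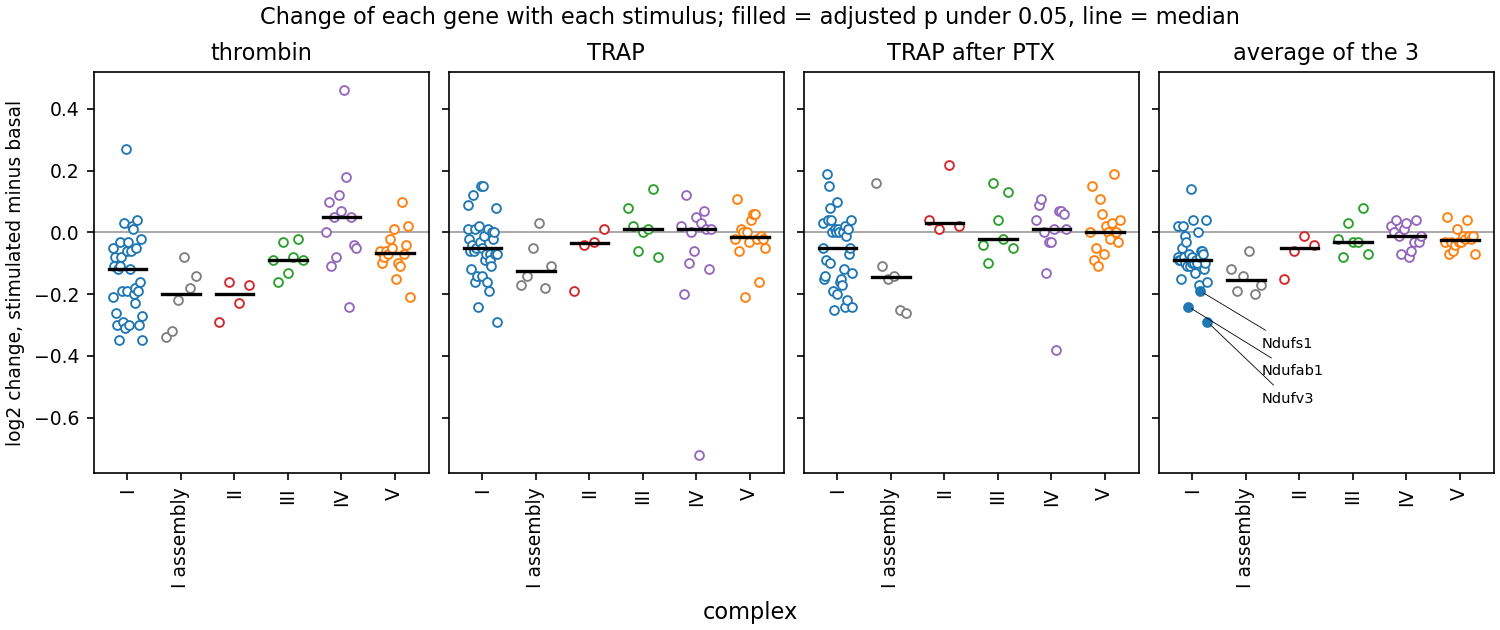
Change of each tested gene with each stimulus against the basal arrays of the same experiment, and the average of the 3 changes, in log2 units by complex; black lines are medians and filled points passed the limma test at an adjusted p under 0.05. Filled points occur in the average alone, for Ndufv3 (-0.29), Ndufab1 (-0.24) and Ndufs1 (-0.19).

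Genes that work beside the respiratory chain were counted in lists, whose shares are read against the 5.55% of all probe sets that rose and the 7.62% that fell in the average. Of 17 tested carriers and enzymes that feed ubiquinone, 1 rose with each stimulus (5.88%). Over all probe sets 2.63% rose after thrombin, 1.84% after TRAP and 1.68% after TRAP with PTX. Coq10b, a lipid-binding protein needed for the function of ubiquinone, had signals of 1253.8 and 1145.8 in basal cells and 1942.8 and 1867.3 after thrombin, 723.4 and 761.8 and then 1311 and 1341.4 with TRAP, and 744.2 and 728.1 and then 1412.9 and 1242 with TRAP after PTX. The groups were far apart in all 3 experiments, with changes of 0.66, 0.82 and 0.83 (adjusted p = 0.000822, 0.000191 and 0.000219) and an average of 0.77 ± 0.05 (adjusted p = 6.91e-07), and each call held when any 1 array was left out. In the average 2 of the 17 fell (11.8%): Coq9, which serves ubiquinone synthesis (-0.29 ± 0.07, adjusted p = 0.0101), and Dhodh, a pyrimidine synthesis enzyme that passes electrons to ubiquinone (-0.35 ± 0.09, adjusted p = 0.0184). Coq9 was also the 1 gene of this list that fell after thrombin (5.88%, against 2.1% of all probe sets). Its change there was -0.46 ± 0.11 (adjusted p = 0.0376), a call lost without some single arrays. The Dhodh call was lost without basal TRAP replicate 2, thrombin replicate 2, TRAP replicate 2 or TRAP after PTX replicate 2 (adjusted p up to 0.0681). Cyc1, the cytochrome c1 of complex III that the symbols do not reach, was at 0.03 ± 0.06 (adjusted p = 0.757).

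Of 35 tested assembly factors beyond the Ndufaf genes that were members, 1 rose and 3 fell in the average (2.86% and 8.57%, near the shares over the array). Sco1, which delivers copper to complex IV, fell by 0.41 on the log2 scale (adjusted p = 0.00306), a call that held when any 1 array was left out. The falls of Sdhaf4 (-0.24, adjusted p = 0.0169) and Atpaf1 (-0.22, 0.0385) and the rise of Ttc19 (0.23, 0.0295) were each lost without some single arrays. After thrombin 1 of the 35 fell (2.86%, against 2.1% of all probe sets), Sdhaf1 (-0.48, adjusted p = 0.0354), also lost without some single arrays. Of 73 mitochondrial ribosomal proteins, which make the subunits encoded by mitochondrial DNA, 12 fell (16.4%) and 0 rose in the average, with a median of -0.12 over the list and -0.04 over all probe sets. After thrombin 3 of the 73 fell (4.11%, against 2.1% of all probe sets): Mrpl2 (-0.56), Mrpl44 (-0.60) and Mrpl16 (-0.46), with adjusted p of 0.0126 to 0.0246. Those 3 calls were lost without basal thrombin replicate 1 or thrombin replicate 1, and for Mrpl2 and Mrpl16 also without thrombin replicate 2 (adjusted p up to 0.198). Of 45 cytosolic ribosomal proteins 0 were called in any of the 3 responses or in the average, with a median average change of 0.00.

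Among 17 tested regulators of mitochondrial biogenesis 1 rose and 3 fell in the average (5.88% and 17.6%). Those that fell were Twnk (-0.33), Tefm (-0.37) and Tfb1m (-0.24), with adjusted p of 0.0183, 0.0187 and 0.0379. Each of these falls lost its call without some single arrays. Pprc1, a serum-responsive coactivator related to PGC-1, rose by 0.26 ± 0.07 (adjusted p = 0.0219), a call lost without basal TRAP replicate 2, basal PTX replicate 1, thrombin replicate 2 or TRAP after PTX replicate 1 (adjusted p up to 0.0732). Nrf1, Gabpa, Esrra and Tfam, the factors that drive respiratory chain genes and mitochondrial DNA, did not pass, at -0.08, 0.09, 0.06 and -0.03. The coactivators Ppargc1a and Ppargc1b, at mean signals of 9.3 and 17.1, were below the filter. Of 22 tested genes of the citric acid cycle and pyruvate dehydrogenase 1 rose and 1 fell in the average (4.55% each). Pdp1, a phosphatase that activates pyruvate dehydrogenase, rose by 0.37 ± 0.09 (adjusted p = 0.0135). Pdhx, a structural part of that enzyme, fell (-0.32 ± 0.08, adjusted p = 0.0185), which was lost without basal TRAP replicate 1 or thrombin replicate 2 (adjusted p up to 0.0644).

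Between basal cells of the experiments these lists differed in their shares of higher calls, and that of the assembly factors was near the share over the array. Against 21.6% higher and 24.9% lower over the array, 24 of 73 mitochondrial ribosomal proteins were higher and 4 lower, 7 of 17 carriers were higher and 2 lower, and 8 of 22 citric acid cycle genes were higher and 2 lower. Of the 35 assembly factors 8 were higher and 7 lower, of the 17 regulators 1 was higher and 3 lower, and of the 45 cytosolic ribosomal proteins 2 were higher and 1 lower. The mitochondrial ribosomal protein Mrps6 was higher (1.01 ± 0.12, adjusted p = 1.5e-05) and Mrpl12 lower (-0.82 ± 0.10, adjusted p = 2.09e-05). The kinases Pdk3 (0.80 ± 0.10, adjusted p = 1.64e-05) and Pdk1 (0.65 ± 0.10, adjusted p = 0.000138), which switch off pyruvate dehydrogenase, were higher in the basal cells of the thrombin experiment. Nrf1, Gabpa, Esrra and Tfam did not pass there either, at -0.03, -0.33, -0.21 and 0.21. The regulator called higher was Gabpb1 (0.33, adjusted p = 0.046). Those called lower were Polg2 (-0.6), Polg (-0.35) and Polrmt (-0.49), with adjusted p of 0.00147, 0.0323 and 0.0436. Of these regulator calls only that of Polg2 held when any 1 array was left out.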

How the data were processed

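Each of the 12 samples was hybridised to 1 single-colour Affymetrix array. The deposited values are linear intensity per probe set, made by the authors with GCOS 1.4 per the submitters' processing notes. On every array the trimmed mean (without the lowest and highest 2%) is about 200. The genome build is not given in the sources used here.

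Tests used log2(signal + 16), a scale on which dim genes change less than in truth. The 57 controls were dropped, and a mean log2 above the 40th percentile (a signal of about 22.7) left 18625 of 31099 probe sets. One limma 3.58.1 model in R 4.3.3 held all 6 groups (eBayes with an intensity trend, 6 residual degrees of freedom, prior 7.5), 2-sided, with Benjamini-Hochberg adjustment over all kept probe sets and a threshold of 0.05. Errors are standard errors of the fit. The script was tested on simulated data. Levels of different probe sets are not compared. Of the 86 genes 42 have a RefSeq-named pseudogene or like copy that could share signal.

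The genes, lists and tests were chosen with earlier results of these data known. Named genes are all past the threshold in a comparison (the 10 largest rises and 6 largest falls where more than 16), the 2 lowest p per complex in the average, the Sdh genes, isoform sets and Atp5if1, and up to 4 per related list and comparison. Further genes of the NADH arm, the smaller calls of complex I and the F1 part (basal comparison) were chosen after their values were seen. So were Ndufb10 and Sdha after thrombin, marker genes, Saa3 and Lcn2. Alternatives were other pseudocounts, filters, scalings, no trend, array weights, a replicate block, a fit of only the groups compared, all 6 basal arrays together as the control, the mean of a gene's probe sets, and each array left out in turn; an array left alone in its group is then assumed to vary like the other groups. The comparison of stimulated cells, and the fit without both stimulated arrays that stood apart in Saa3, were added after seeing the data.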

Additional observations from a re-analysis of the deposited data

How the results depend on the processing

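The numbers of called genes after TRAP (0), after TRAP with PTX (0), in thrombin minus TRAP (0), in the effect of PTX (0), between both TRAP basal groups (0) and between basal cells of the thrombin and TRAP experiments (38, with 29 to 41 under other settings and 26 to 39 with 1 array left out) stayed within 1.5 times under the alternatives run. Quantile normalization gave 1 call after thrombin, 7 in the average of the 3 responses and a median of -0.07 after TRAP with PTX. Centring each array on its median gave 1 call in the average (Ndufv3) and medians of 0.04 after TRAP, 0.06 after TRAP with PTX and 0.00 for the average. With all 6 basal arrays as the control the average had 0 calls, and the medians were 0.03 after thrombin, -0.07 after TRAP with PTX and 0.15 for thrombin minus TRAP. The small medians of the single responses therefore have no direction that holds under every setting run. With 1 array left out the calls ran from 0 to 1 after thrombin, from 2 to 6 in the average and from 15 to 24 between stimulated cells, and the medians from -0.09 to 0.03 after TRAP, -0.08 to 0.06 after TRAP with PTX, -0.05 to 0.09 for the effect of PTX, -0.05 to 0.08 between both TRAP basal groups and 0.07 to 0.18 between stimulated cells. Of 1079 alternative values of 45 named results 1030 kept direction and side of the threshold, 41 lost the call, 6 gained it and 2 turned: the average change of Cox7a2l was 0.02 with centred arrays and that of Cox6c-ps1 was 0 with quantile normalization. The cause was not tested. Replicate numbers did not pair the samples (correlation of same-numbered deviations from -0.32 to 0.13, over 0.1 in 1 of 15 pairs). With the replicate block 0, 0 and 0 genes were called in the single responses, 3 in the average, 0 in both differences of responses, 35 between basal cells of the thrombin and TRAP experiments, 0 between both TRAP basal groups and 24 between stimulated cells.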
